A study of Mus musculus with 12 samples.

Results

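Interferon-induced genes are the set that blood and other cells switch on when interferon, released during infection, binds its receptor. The chromatin described here is that of the peaks of an ATAC-seq master peak-list whose nearest gene belongs to the Ifit, Ifitm, Ifi200, other Ifi, Oas, Gbp, Slfn, Irgm, Mx or Isg families, chosen by gene symbol alone. They number 197 of the 84243 peaks of the list and carry 64 gene names. ATAC-seq marks open DNA with a transposase that inserts sequencing adapters where nucleosomes leave it exposed. The 12 samples came from wild-type C57BL/6 mice of 8 to 12 weeks, as pairs of replicates of 6 sorted populations. Bone marrow gave hematopoietic stem cells (HSCs), megakaryocyte progenitors (MkPs), erythrocyte progenitors (EPs), granulocyte/macrophages (GMs) and B cells, and thymus gave the T cells. The list is pooled over all samples. No peak is tied to a population and none has a read count, so the depth is unknown, no value has a replicate error, and no cell types were compared. The labels name no interferon treatment, and expression was not analysed here, so an open promoter means that a peak was called there in at least 1 of the populations.

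Type I interferon binds the Ifnar1 and Ifnar2 receptor chains, and the kinases Jak1 and Tyk2 then activate the transcription factor complex ISGF3. ISGF3 and other interferon regulatory factors bind the interferon-stimulated response element (ISRE), which in its common form holds a pair of GAAA half-sites facing the same way. Interferon gamma acts mainly at the gamma-activated site (GAS). The products act against viruses and other intracellular microbes: Ifit proteins bind foreign RNA, Oas proteins make the messenger that activates RNase L, Ifitm proteins block fusion of viruses with membranes, Mx proteins are antiviral GTPases, and Gbp and Irgm proteins are GTPases that act on vacuoles of microbes. Ifi200 proteins are DNA-binding sensors and regulators, Isg15 is a ubiquitin-like modifier, Isg20 is an exonuclease, and Slfn proteins control growth and RNA in lymphocytes and other cells.

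Of the 197 peaks, 46 were centred no more than 500 bp from a transcription start site (TSS) and are called promoter peaks, and 151 were distal. The promoter share was 23.4% (95% Wilson interval 18.0 to 29.7%, counting error only), beside 15.6% of all peaks. A share of peaks depends on the number of distal peaks too. These genes had a mean of 3.08 peaks per gene name, beside 4.42 for all gene names. Of their protein-coding starts, 62.1% had a peak centre within 500 bp, beside 57.1% of all. The part that naming by nearest gene plays in the promoter share was not tested. The string searched as ISRE was GAAANNGAAA on both strands of the 499 bp peak. It occurred in 21 of the 46 promoter peaks, or 45.7% (32.2 to 59.8%), beside 4.57% of all promoter peaks. It occurred in 20 of the 151 distal peaks, or 13.2% (8.74 to 19.6%), beside 7.90% of all distal peaks. The ISRE share was thus higher at the promoters than at the distal peaks of these genes, whereas over the whole list it was lower at promoters. A string match is a description of letters and not evidence of binding.

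The ISRE sequences below come from the RefSeq reference (GRCm38, the assembly named mm10) and are written in the direction of the gene, 40 bases either side of 1 ISRE string, with bases of every ISRE string in the window in capitals. One promoter peak is shown for each family that has a match, the one whose ISRE lies nearest its TSS. The windows were picked for holding the string and for its closeness to the TSS. They illustrate its setting and do not measure likeness or closeness. In capitals, TTTC pairs are GAAA pairs read on the other strand.
Oas1a (chr5:120907490-120907579, minus strand, site 10 bp upstream of the TSS): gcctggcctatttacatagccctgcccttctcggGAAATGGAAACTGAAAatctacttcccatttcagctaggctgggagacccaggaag
Ifit1bl1 (chr19:34599401-34599490, minus strand, 19 bp upstream): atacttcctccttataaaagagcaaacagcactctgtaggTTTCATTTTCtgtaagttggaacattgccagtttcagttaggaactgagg
Irgm1 (chr11:48871395-48871484, minus strand, 20 bp upstream): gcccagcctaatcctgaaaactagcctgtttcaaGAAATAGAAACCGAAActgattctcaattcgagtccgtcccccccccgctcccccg
Ifi203 (chr1:173942478-173942567, minus strand, 31 bp upstream): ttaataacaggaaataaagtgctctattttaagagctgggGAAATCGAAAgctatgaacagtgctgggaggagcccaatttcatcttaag
Ifi27 (chr12:103434180-103434269, plus strand, 35 bp downstream): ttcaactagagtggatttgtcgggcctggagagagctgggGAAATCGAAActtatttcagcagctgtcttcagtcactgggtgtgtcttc
Ifitm2 (chr7:140955958-140956047, minus strand, 42 bp upstream): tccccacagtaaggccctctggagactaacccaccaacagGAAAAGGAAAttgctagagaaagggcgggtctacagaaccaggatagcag
Slfn8 (chr11:83020809-83020898, minus strand, 44 bp upstream): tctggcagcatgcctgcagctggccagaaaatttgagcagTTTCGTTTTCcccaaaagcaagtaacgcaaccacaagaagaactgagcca
Gbp7 (chr3:142530243-142530332, plus strand, 49 bp upstream): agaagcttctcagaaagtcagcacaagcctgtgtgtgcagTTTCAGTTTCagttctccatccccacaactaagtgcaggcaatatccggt
Isg15 (chr4:156200835-156200924, minus strand, 62 bp upstream): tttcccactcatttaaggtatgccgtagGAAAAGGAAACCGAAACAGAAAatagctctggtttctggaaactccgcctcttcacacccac
The Isg15 window holds GAAA half-sites in a row, which count as 3 overlapping ISRE strings. Oas1a and Irgm1 each hold 2 overlapping strings of the same kind.

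One further promoter is shown because 2 genes start in it. The peak at chr19:34640556-34641054 carries the gene name Ifit1bl2, with its centre 62 bp upstream of an Ifit1bl2 TSS, but it is also centred 84 bp from the RefSeq TSS of Ifit1. Its ISRE strings lie 81 and 100 bp upstream of Ifit1, which is read in the opposite direction. The sequence is that of the minus strand, chr19:34640745-34640834.
Ifit1bl2 and Ifit1: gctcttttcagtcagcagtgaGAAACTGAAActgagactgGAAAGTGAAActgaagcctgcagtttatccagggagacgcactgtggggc
Hence Ifit1, whose named peaks are 5 distal peaks with the nearest 15752 bp away, does have an open promoter in the list. The same holds for Ifi206, which has no named peak but a peak centre 237 bp from its RefSeq TSS, for the pseudogene Ifi203-ps at 12 bp, and for Oas1b, 62 bp from the peak named for Oas1c. In all, 4 of the 46 promoter peaks had a curated TSS of a differently named gene within 500 bp: the Ifit1bl2 and Oas1c peaks, the Isg20l2 peak (with Rrnad1) and the Ifitm7 peak (with Bmerb1).

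The 21 promoter peaks with an ISRE held 30 strings. They belonged to Oas1a, Oas1c, Oas2 and Oas3, to Gbp2, Gbp3, Gbp7 and Gbp10, to Ifi203, Ifi204 and Ifi211, to Ifit1bl1 (2 peaks, at separate starts) and Ifit1bl2, to Irgm1 and Irgm2, and to Isg15, Isg20, Ifi27, Ifitm2 and Slfn8. Of the 30 strings, 25 lay upstream of the TSS and 5 downstream, with a median of 48 bp upstream and extremes of 291 bp upstream (Gbp10) and 183 bp downstream (Gbp3). Between 10 and 110 bp upstream, a window chosen after the positions were seen, lay 23 strings (76.7%, 59.1 to 88.2%), and 17 of the 21 peaks had a string there. In all promoter peaks with an ISRE, 135 of 677 strings (19.9%, 17.1 to 23.1%) lay in that window, leaving out 1 string near a gene whose strand was not matched in RefSeq. The string pointed in the direction of the gene in 20 cases and against it in 10.

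**Figure D1:**
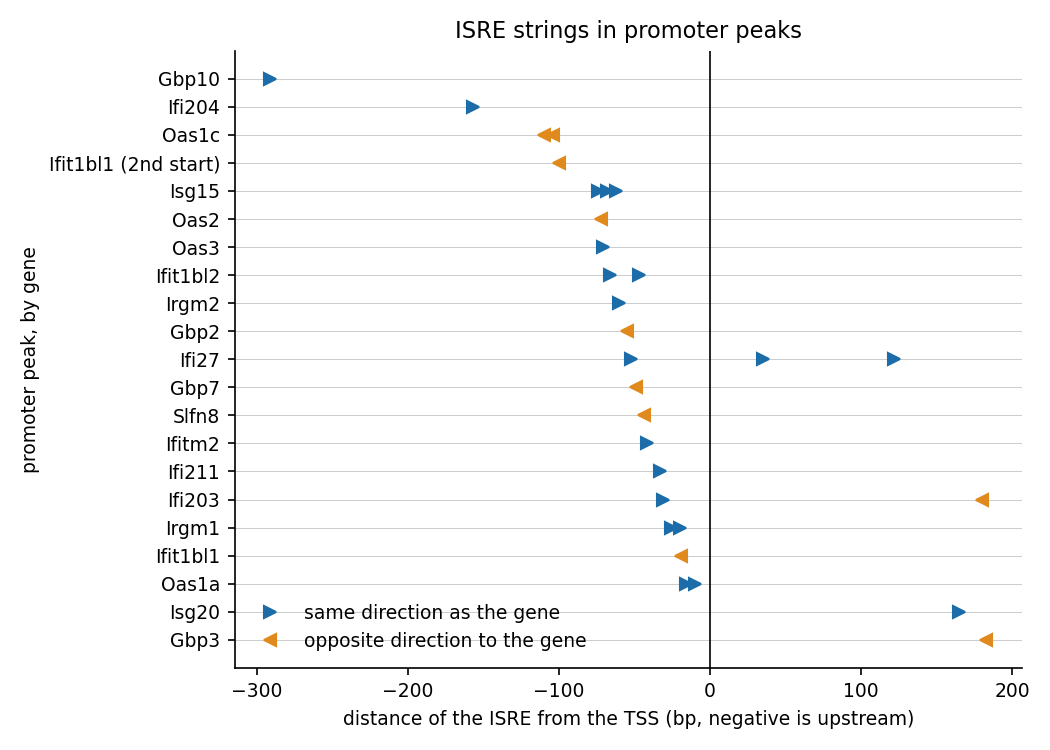
Position of each of the 30 ISRE strings in promoter peaks of interferon-induced genes, by gene; the x axis is the distance from the TSS in bp, negative upstream, and triangles point with or against the direction of the gene. Most strings sit between 10 and 110 bp upstream, with Gbp10 and Ifi204 further upstream and strings of Isg20, Gbp3, Ifi203 and Ifi27 downstream.

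The 2 bases that follow the second half-site also differed from those of other ISRE strings. In the promoter peaks of interferon-induced genes, 11 of 30 strings (36.7%, 21.9 to 54.5%) were followed by CT, the ending of the classical ISRE, beside 73 of 678 (10.8%, 8.65 to 13.3%) in all promoter peaks. In the distal peaks it was 6 of 23 (26.1%, 12.5 to 46.5%), beside 461 of 6355 (7.25%). The promoter strings were also nearer the peak centre, at a median of 33 bp beside 126.5 bp for all promoter peaks. Neighbouring strings can overlap and paralogues share sequence, so strings are not independent counts. This feature was looked at after the sites were listed.

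The promoters of these genes were poor in CpG, the dinucleotide that marks most open promoters. The median G and C content of the 46 promoter peaks was 49.3% (quartiles 46.2 and 52.3%), beside 63.3% (57.5 and 68.7%) for all 13171 promoter peaks. The CpG ratio, the observed number of CpG over that from base composition, had a median of 0.207 (quartiles 0.0827 and 0.304), beside 0.778 (0.606 and 0.896). A ratio under 0.4 was found in 40 of the 46 (87.0%, 74.3 to 93.9%), beside 12.8% of all promoter peaks. Isg20l2, a ribosome biogenesis nuclease that shares the name of Isg20, stood apart with 69.9% G and C and a ratio of 0.986. The next ratios were 0.532 for Ifitm7, which shares its promoter with Bmerb1, 0.472 for Irgm1, 0.466 for Oas1c and 0.451 for Gbp7. Both Gbp10 and Gbp11 had a ratio of 0, with no CpG in 499 bp.

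**Figure D2:**
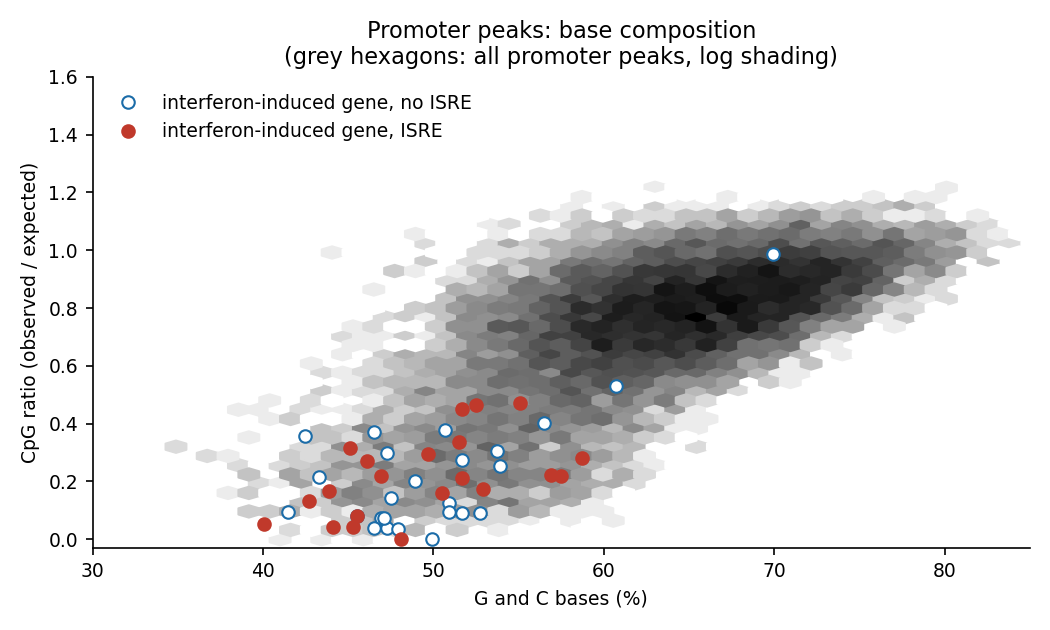
Base composition of promoter peaks, with the percentage of G and C bases on the x axis and the CpG ratio on the y axis; grey hexagons are all 13171 promoter peaks on a log shade, and circles the 46 promoter peaks of interferon-induced genes, filled where an ISRE was found. The circles lie at a median of 49.3% and 0.207, away from the dark mass of promoters, and filled and open circles intermix.

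Base composition bears on how often a string occurs, so the ISRE share was also taken among promoter peaks of like composition. Among those with a CpG ratio under 0.4, the ISRE occurred in 18 of 40 peaks of these genes (45%, 30.7 to 60.2%), beside 190 of 1691 (11.2%, 9.82 to 12.8%) in all. The reversed string AAAGNNAAAG, which has the same bases, occurred in 6 of 40 (15%, 7.06 to 29.1%), beside 6.62% in all. Within CpG-poor promoters the ISRE interval thus began well above its background, and that of the reversed string just above its own.

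Other motifs separated the promoter and distal peaks less. The GAS string TTCNNNGAA occurred in 9 promoter peaks (19.6%, 10.7 to 33.2%), beside 9.0% of all promoter peaks, and in 16 distal peaks (10.6%, 6.63 to 16.5%), beside 15% of all distal peaks. Among CpG-poor promoters the GAS occurred in 7 of 40 (17.5%, 8.75 to 31.9%), beside 13.1%, and that interval includes the background. Gbp7 held 2 GAS strings together with its ISRE. The RUNX string TGTGGTT occurred in 12 promoter peaks (26.1%, 15.6 to 40.3%), beside 5.88%, and the AP-1 string TGANTCA in 11 (23.9%, 13.9 to 37.9%), beside 6.80%. In CpG-poor promoters the gaps of RUNX and AP-1 were also smaller, at 27.5% beside 13.8% for RUNX (interval from 16.1%) and 25.0% beside 14.7% for AP-1, where the interval from 14.2% includes the background. The intervals of the ETS string CCGGAAGT (2 promoter peaks, 4.35%, 1.2 to 14.5%, beside 8.61%) and of the PU.1 string GAGGAAGT (5, 10.9%, 4.73 to 23.0%, beside 4.79%) included their backgrounds. The composite string GGAANNGAAA of ETS and interferon regulatory factors, which can overlap an ISRE, occurred in 6 promoter peaks (13.0%, 6.12 to 25.7%), beside 3.66%, and in 7 distal peaks (4.64%, 2.26 to 9.26%), beside 7.20%. The CTCF consensus occurred in 0 of 46 promoter peaks, with an upper bound of 7.71% that includes the 1.99% of all promoter peaks, and in 14 distal peaks (9.27%), beside 8.74%.

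**Figure D3:**
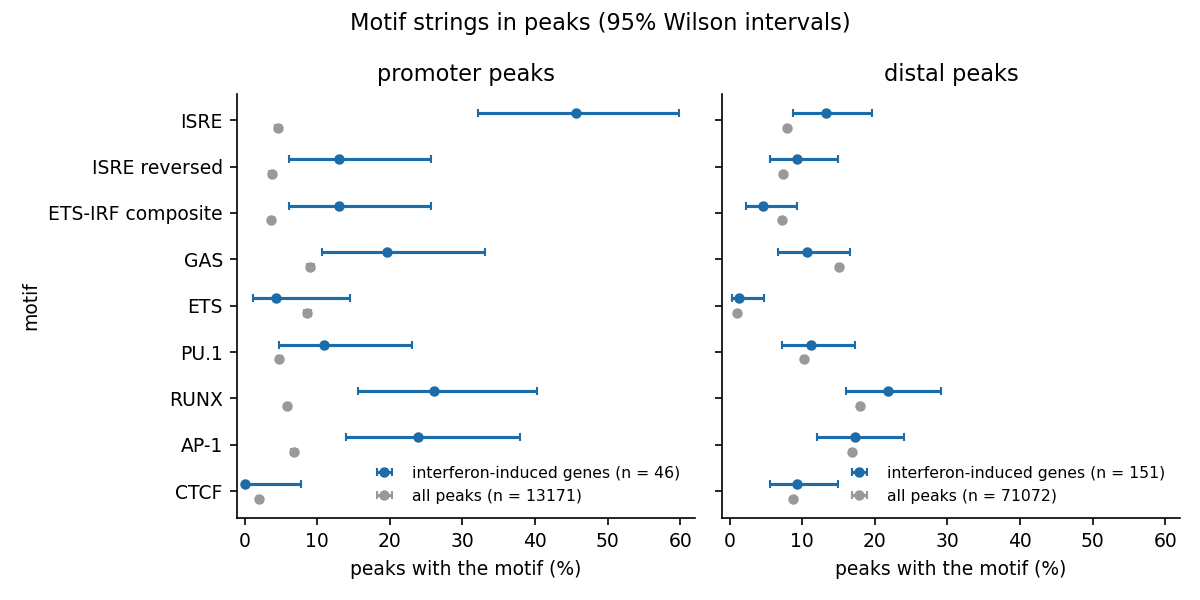
Share of peaks holding each motif string, in percent on the x axis, for promoter peaks (left) and distal peaks (right); blue points are interferon-induced genes, grey points all peaks of the class, and bars 95% Wilson intervals. The ISRE of promoter peaks, 45.7% beside 4.57%, is the pair farthest apart, and in the distal panel the interval of every motif but the ISRE includes the grey point.

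By family, the number of peaks ran from 10 for the 3 Isg genes to 28 for the 10 Slfn genes, and the promoter share from 14.8% for Ifitm to 30.8% for Gbp. The ISRE at promoters was spread unevenly, in numbers too small to rank. It was found in 4 of 5 Oas, 3 of 4 Ifit, 4 of 8 Gbp, 3 of 6 Ifi200, 2 of 2 Irgm and 2 of 3 Isg promoter peaks. It was found in 1 of 6 Slfn, 1 of 6 other Ifi, 1 of 4 Ifitm and 0 of 2 Mx promoter peaks. When 1 mismatch was allowed, 41 of the 46 promoter peaks had a match, beside 36.5% of all promoter peaks. The looser string also matched 63.45% of all distal peaks. Their median G and C content of 47.7% is near the 49.3% of these promoters. No share of the looser string was taken among promoters of like composition, so these matches are not read as forms of the ISRE.

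**Figure D4:**
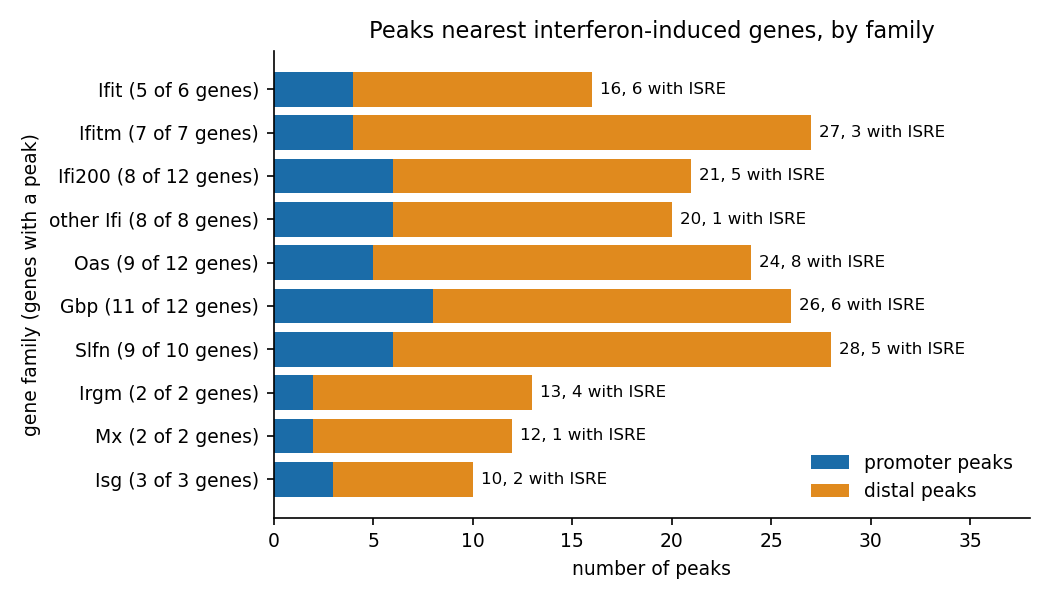
Number of promoter peaks (blue) and distal peaks (orange) per gene family, with the total and the number of peaks with an ISRE at the end of each bar, and genes with a named peak in brackets. The x axis counts peaks; Slfn, Ifitm and Gbp have the longest bars, at 28, 27 and 26 peaks, and distal peaks outnumber promoter peaks in each family.

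Interferon-induced genes had a mean of 3.08 peaks per named gene, beside 4.42 for all 19040 gene names, and a median of 2.5 beside 3. Genes with a single peak made up 20.3% of them, beside 25.4% of all. The nearest-gene rule divides peaks among close neighbours, and its part in the lower mean was not tested. The gene with the most was Mx1, with 9 peaks, 1 of them at the promoter 58 bp upstream of the TSS. Its distal peaks ranged from 15901 bp upstream to 44854 bp downstream, and none of the 9 held an exact ISRE. Those at 15901 bp upstream and at 31397, 44064 and 44854 bp downstream lay beyond Mx1, in introns of other transcripts. They carry its name only because its TSS was the nearest. In RefSeq, Mx1 and Mx2 are typed as transcribed pseudogenes in this C57BL/6 reference, and Mx1 is known to be defective in many inbred strains, yet both had an open promoter. The Mx2 promoter peak, at 14 bp, had no ISRE, but its peak 881 bp upstream had one, 933 bp from the TSS.

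Ifitm3, which restricts entry of influenza and other viruses, had 8 peaks and none within 500 bp of its TSS. The nearest were centred 740 bp upstream and 838 bp and 1572 bp downstream. Its 2 distal ISRE strings lay 11657 bp and 20082 bp downstream, in the intergenic DNA toward Ifitm1. The RefSeq promoter sequence of Ifitm3 also holds 2 ISRE strings, but no called peak covers them. Slfn2, whose loss leaves T cells unable to stay quiescent, had 8 peaks: its promoter peak was centred at 60 bp upstream without an ISRE, and a peak 13090 bp downstream held 2. Irgm2 also had 8 peaks, with an ISRE 60 bp upstream of its TSS. Both intronic peaks of Irgm2, at 1945 and 3975 bp, were annotated to ERVL-MaLR repeats.

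Among the sensors, Ifi214 had 7 peaks and no promoter peak, the nearest being at 3578 bp. Isg20 had 7, with its ISRE 165 bp downstream of the TSS and peaks at 919 bp upstream and 846 bp downstream. Gbp5, which promotes inflammasome assembly, had 6 peaks, its promoter peak centred 420 bp inside the gene in intron 1. Irgm1 and Ifi47, both immunity-related GTPases, had 5 each. The ISRE of Irgm1 at its promoter was accompanied by ISRE-holding peaks centred 808 and 3267 bp upstream. The promoter peak of Ifi47 marked an alternative start: it was centred 3 bp from a TSS of the HOMER annotation, whereas the nearest peak to the RefSeq Select TSS was 1248 bp away. Among the Oas genes, Oasl1, Oasl2 and Oas3 had 4 peaks each.

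The promoter boundary cut through several open gene starts. The promoter peaks nearest the limit on the inside were those of Gbp5 (420 bp), Ifi204 (315 bp upstream) and Gbp3 (253 bp). Just outside it lay peaks of Oasl2 (521 bp), Slfn9 (631 bp), Slfn5 (654 bp), Oas3 (676 bp), Gbp2 (677 bp) and Ifi30 (711 bp). Those of Oasl2, Slfn9 and Slfn5 held an ISRE, 2 strings for Oasl2 at 539 and 568 bp into the gene. These 3 genes had no peak nearer their TSS.

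The distal peaks lay closer to their genes than distal peaks in general. Their median distance to the TSS was 6895 bp (quartiles 2476 and 15826 bp), beside 22261 bp for all distal peaks, and 57.6% (49.6 to 65.2%) were within 10 kb, beside 28.9%. One lay beyond 100 kb, at 102012 bp from Ifi44, beside 13.0% of all distal peaks. Another peak centre was within 2 kb of 43.0% of them (35.4 to 51.0%), beside 27.7%. The rule that names the nearest gene shortens distances where genes stand close together, and its part in this difference was not tested. Of the 151, 76 were intergenic and 52 intronic. Another 7 had the HOMER promoter class, which reaches further upstream than 500 bp.

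Within the distal peaks the ISRE did not follow distance in 1 direction. It occurred in 6 of 31 peaks up to 2 kb from the TSS (19.4%, 9.19 to 36.3%), beside 6.31% of all distal peaks at that distance. It occurred in 4 of 56 between 2 and 10 kb (7.14%, 2.81 to 17.0%), beside 7.40%, and in 10 of 64 farther away (15.6%, 8.71 to 26.4%), beside 8.22%. The farthest class includes the peak named for Ifi204 at 35824 bp upstream, which holds 2 strings. That peak is centred 12 bp from the start of the pseudogene Ifi203-ps, so it is distal by name only. The intervals of the 3 classes overlap. The peaks up to 2 kb with an ISRE belonged to Oasl2, Slfn5, Slfn9, Slfn1, Irgm1 and Mx2.

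Long terminal repeats (LTRs) of endogenous retroviruses underlay 25 distal peaks, or 16.6% (11.5 to 23.3%), beside 7.79% of all distal peaks. Of the 25, 12 were ERVK elements, 7.95% of the distal peaks (4.60 to 13.4%) beside 1.61%, and 10 were ERVL-MaLR elements, 6.62% (3.64 to 11.8%) beside 4.75%. The ERVK peaks included 2 peaks named for Ifi214, of RMER17C2 and RLTR45 type, 2 of Slfn2 (RLTR8 and SRV_MM-int), 2 of Ifitm6 (RMER17C and ERVB7_2-LTR_MM) and 1 of Irgm2 (RMER17D2). The RMER17C2 peak is the one centred 237 bp from the RefSeq start of Ifi206. An ISRE occurred in 1 of these 25 peaks (4.00%, 0.710 to 19.5%), the MLT1J peak 7258 bp upstream of Oasl1, and the interval includes the 7.58% of all distal LTR peaks. None of the 46 promoter peaks was annotated to a repeat, beside 0.213% of all promoter peaks. Each peak has 1 detailed label, and 38 of the 46 were labelled as promoter and 6 as 5' UTR. A repeat under these may go unnamed, so the 0 does not show that repeats are absent. The promoter peaks of Ifi213 and Ifi208 shared 212 and 184 stretches of 20 bases with the RMER17C2 peak. Reads that map to several places were left out before peak calling, so recent repeats could yield a peak only where unique.

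Joined where neighbouring TSSs lay within 500 kb, the 74 RefSeq genes matching the names formed 20 loci. Of these, 8 held 3 or more genes and are called clusters, with 58 genes, 132 peaks and 33 promoter peaks (25.0%, 18.4 to 33.0%). The other 12 loci had 16 genes, 65 peaks and 13 promoter peaks (20%, 12.1 to 31.3%). Peaks per gene were 2.28 in clusters and 4.06 outside, and the promoter shares overlapped in their intervals. Unlike the mean of 3.08 per named gene, these values count every RefSeq gene. The 10 genes with no named peak all lie in clusters. The ISRE was found in 17 of the 33 cluster promoter peaks and 4 of the 13 others. Inside the clusters the density of peaks from any gene ran from 3.59 to 19.1 per 100 kb, beside 3.18 over the assembled genome.

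The Ifi200 cluster at chr1:173468485-174031755 was the longest of the 8, with 12 genes in 563.3 kb, 21 peaks and 8 starts with a peak centre within 500 bp. Of its peaks, 6 were promoter peaks, and those of Ifi203, Ifi204 and Ifi211 held an ISRE. Ifi205, Ifi207, Ifi202b and Ifi214 had no peak at their RefSeq start. The Ifit cluster at chr19:34550550-34662981 had 6 genes and 16 peaks in 112.4 kb. Its starts at Ifit2, Ifit1bl1 and Ifit1 were open by RefSeq, and Ifit2 had no exact ISRE in its promoter peak. Ifit3 and Ifit3b had their nearest peak centres 10127 and 5854 bp away, but much of their promoter sequence is not unique. Of their 50-base stretches, 39.8% and 35.4% occurred once in the genome, and of their 100-base stretches 60.45% and 63.7%.

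Both Gbp clusters had 6 genes and 13 peaks, 4 of them promoter peaks, with 3 and 1 of these holding an ISRE, counts too small to tell apart. On chromosome 3 (chr3:142496934-142663508) the ISRE was in the promoters of Gbp2, Gbp3 and Gbp7, and Gbp2b had its nearest peak 3942 bp away. On chromosome 5 (chr5:105012513-105346476) it was in that of Gbp10, 291 bp from the TSS, and the promoters of Gbp4, Gbp9 and Gbp11 had none. The chromosome 5 starts also share sequence, and Gbp4 and Gbp9 had 213 stretches of 20 bases in common.

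The Oas cluster at chr5:120730333-120921648 held 10 genes, 16 peaks and 4 promoter peaks, and each of the 4, at Oas1a, Oas1c, Oas2 and Oas3, had an ISRE. The starts of Oas1e, Oas1f, Oas1g, Oas1h and Oas1d had no peak centre within 500 bp, with nearest centres from 736 bp (Oas1d) to 19961 bp (Oas1g). The Slfn cluster at chr11:82942341-83286726 had 10 genes and 28 peaks, and its open promoters were those of Slfn1, Slfn2, Slfn3, Slfn8, Slfn10-ps and Slfn14. Of these, Slfn8 had an ISRE. Slfn4, a neighbour of Slfn1 and Slfn3, had no named peak and none nearer than 16072 bp.

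The Ifitm cluster at chr7:140948958-141016892 was the densest of the 8, with 5 genes and 13 peaks in 67.94 kb, and 20 peaks named for its genes in all. Ifitm1, Ifitm2 and Ifitm6 had promoter peaks, whereas Ifitm3 and Ifitm5, which acts in bone, had none. The Ifi27 cluster at chr12:103433873-103457223 spanned 23.35 kb with 3 genes. The Ifi27 promoter peak was centred 34 bp downstream of the TSS and held 3 separate ISRE strings 52 bp upstream and 35 and 122 bp downstream. Ifi27l2a was open at 30 bp without an ISRE, and Ifi27l2b had no peak within 13513 bp.

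**Figure D5:**
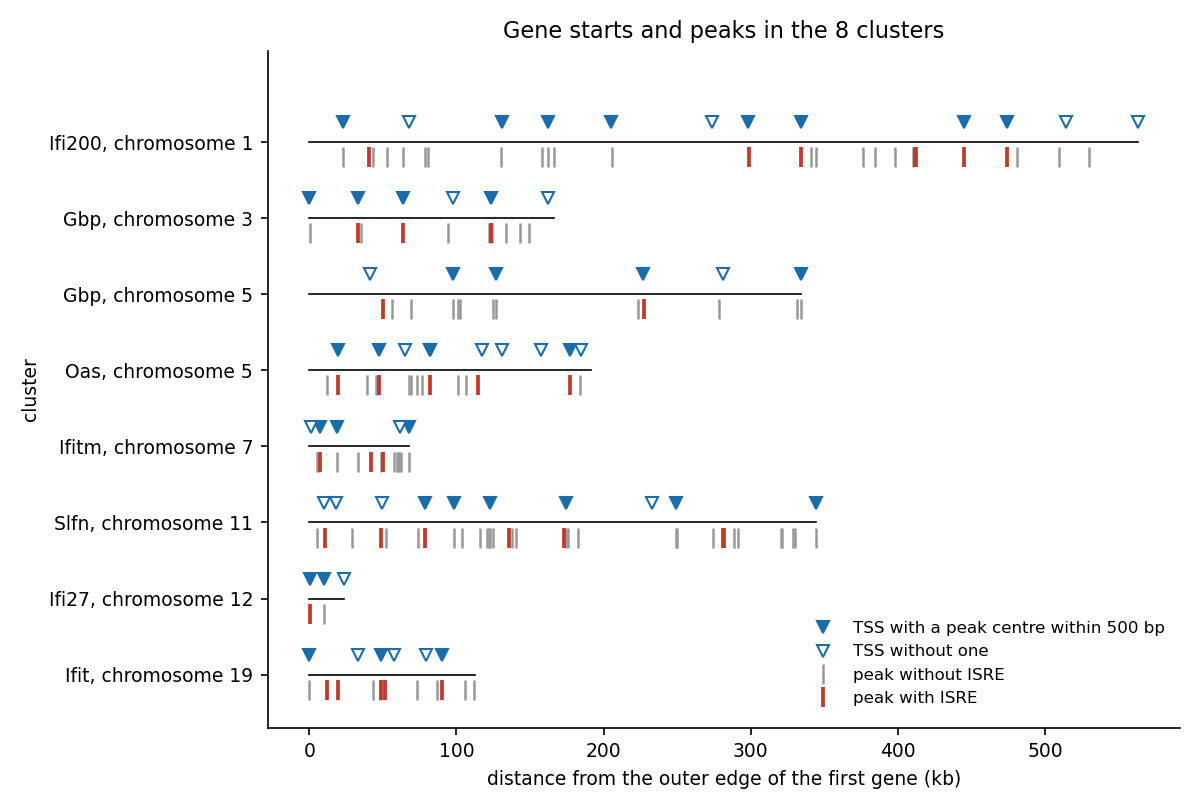
Gene starts (triangles, filled where a peak centre lies within 500 bp of the RefSeq TSS) and peaks of any name (ticks, red with an ISRE) within the 8 clusters; the x axis is the distance in kb from the outer edge of the first gene. Every cluster has both filled and open triangles, often in runs, such as the 3 filled ones of Gbp9, Gbp4 and Gbp10 on chromosome 5.

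Of the 66 protein-coding genes that RefSeq lists under these names, 41 had a promoter peak of their own name. Taking RefSeq starts and peaks of any name, 41 of 66 were open (62.1%, 50.1 to 72.9%), beside 57.1% of all 21774 protein-coding genes, so the share was near the background. The ISRE was found at starts both with and without a peak. In the RefSeq promoter sequence, from 250 bases before to 50 after the start, an ISRE occurred in 30 of the 54 genes matched there (55.6%, 42.4 to 68.0%), beside 3.94% of 17492 protein-coding genes. It was found in 19 of 34 genes with a peak at the start (55.9%, 39.5 to 71.1%). Without one it was 11 of 20 (55.0%, 34.2 to 74.2%), and the wide intervals overlap. The peak was judged at the Select TSS alone, whereas the ISRE could lie in any RefSeq promoter of the gene. Ifit1bl2 is thus among the 11, although the peak 62 bp from another of its starts holds 2 strings. Slfn5 and Slfn9, with peaks at 654 and 631 bp, are also among them. The near-equal shares therefore do not compare open with closed promoters cleanly.

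Paralogues share sequence, and reads with several matches were left out, so a start with little unique sequence could yield few reads. In 23 of the 66 genes (34.8%, 24.5 to 46.9%), under 80% of the 50-base stretches within 250 bp of the TSS were unique in the genome, beside 10.2% of all protein-coding genes. Of those 23, 12 had a peak at the start (52.2%, 33.0 to 70.8%), as had 29 of the other 43 (67.4%, 52.5 to 79.5%). Over all protein-coding genes the shares were 11.1% and 62.3%. The part that non-unique sequence plays at the interferon-induced genes was not tested. Among genes with no named peak, Ifit3b had 35.4% of stretches unique, Ifi206 48.5% and Oas1g 54.0%, whereas Ifi205, Ifi207, Slfn4, Oas1h, Oas1b and Gbp2-ps had 100% and Ifi203-ps 81.9%. Ifit3, with a single peak 13260 bp upstream, had 39.8%. These shares are for 50-base stretches, whereas the paper sequenced 100 bases from each end. Of 100-base stretches, 63.7% were unique at Ifit3b, 76.9% at Ifi206, 66.7% at Oas1g and 60.45% at Ifit3. Some starts rose above the 80% cut at that length, such as Ifi214 (58.0 to 92.8%) and Oas1e (60.0 to 98.3%). The count of 23 thus holds for the shorter length only. For Ifi205 and Ifi207, whose RefSeq promoters hold 2 and 1 ISRE strings, the stretches were all unique and the nearest peak centres were 9237 and 25425 bp away.

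Peaks of paralogues also resembled one another. Of the 197 peaks, 33 shared at least 20 stretches of 20 bases with another, in 26 pairs, and 6 of these 33 were among the 21 promoter peaks with an ISRE. The Ifi204 and Ifi211 promoter peaks shared 238 stretches, the 2 Ifit1bl1 promoter peaks 190, and the Mx1 and Mx2 promoter peaks 61. Such pairs are not independent examples of an ISRE.

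The other genes of the pathway are to be read beside the whole list, where the median CpG ratio of promoter peaks was 0.778, 4.57% of them held an ISRE and 57.1% of protein-coding starts had a peak. All 6 receptor genes (Ifnar1, Ifnar2, Ifngr1, Ifngr2, Ifnlr1 and Il10rb) and the 4 genes Jak1, Jak2, Tyk2 and Stat2, which act downstream of them, had a peak centre within 500 bp of the start. Their CpG ratios ran from 0.619 to 0.826 and from 0.688 to 0.953, and among these 10 genes Stat2 had an ISRE in that peak. Of 6 Irf genes, 5 were open and 1, Irf2, had an ISRE, while Irf7 and Irf9 had low CpG ratios of 0.239 and 0.313. The remaining gene, Irf5, had no peak centre within 2232 bp of its RefSeq Select start, but 1 promoter peak by the HOMER annotation.

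Several sensors and feedback genes held an ISRE. Of 9 genes that sense nucleic acids or pass that signal on, 8 were open and 4 held an ISRE. These 4 were Ddx58 and Ifih1, which detect viral RNA, Dhx58, and Zbp1 with 4 strings. The feedback inhibitors Usp18 and Socs1 each held 2, and Socs3 none. Among 22 other interferon-induced genes outside the name families, 18 were open and 11 of these genes had an ISRE in the peak, with a median CpG ratio of 0.345 over the 18 genes, to be read beside the same shares of 57.1% and 4.57%. They included Rsad2, Eif2ak2, Cxcl10 and Igtp with 1 string each, Bst2 with 2 and Rtp4 with 4. Parp9 and Dtx3l share 1 such peak, which is counted for both. The RefSeq Select starts of Iigp1, Tgtp1, Ly6e and Nlrc5 had no peak centre within 500 bp. For Ly6e the nearest was 579 bp away, but it had 1 promoter peak by the HOMER annotation.

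Chemokines and their receptors, another set of clustered immune genes, served as a comparison for the promoter share. Of their 227 peaks, 18 were promoter peaks (7.93%, 5.07 to 12.2%), and the interval did not overlap that of the interferon-induced genes (18.0 to 29.7%). The share of all peaks, 15.6%, lay above the chemokine interval and below that of the interferon-induced genes. The gap thus reflects a low chemokine share as well as a higher share here, which is a share of peaks and not of open starts. Intergenic peaks made up 70.0% of the chemokine peaks, beside 37.6% of all peaks and 38.6% of those of interferon-induced genes. Their part in the gap was not tested.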

How the data were processed

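The authors aligned the ATAC-seq reads to mm10 with the ENCODE ATAC-seq pipeline, leaving out multimapping reads. Per cell type they kept the peaks reproducible between replicates (Irreproducible Discovery Rate, optimal set), then put the 6 sets together and reduced overlapping peaks with chromVAR. They annotated the peaks with HOMER (version 4.10.2 in the submitters' processing notes). The deposited list is pooled over 12 samples, with 0 columns of values per sample. The score column deposited by the authors was 0 in every peak and was not used. Start, end and the signed distance to the TSS were used as deposited, in bp.

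Members were matched by gene symbol. The members, gene lists and motifs were chosen with earlier results of these data known. All genes matching the names could be named, and other pathway genes came from a fixed list, of which 50 are reported and 1 is not reported here. Sequence, TSSs and promoters came from RefSeq GRCm38.p6, where 1 Select TSS per gene was used. Motif strings were searched on both strands. Shares have 95% Wilson intervals, and no test was run, because peaks are not replicates. The motif search and the count of unique stretches were checked on simulated data. Scripts ran in Python 3.11.15 (pysam 0.24.0, numba 0.67.0, numpy 2.4.6, pandas 2.3.3).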

Additional observations from a re-analysis of the deposited data

How the results depend on the processing

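No paired analysis was possible because the list holds no values per sample. The counts of member peaks (188 to 196, beside 197), of promoter peaks (32 to 63, beside 46), of loci (20 and 22, beside 20) and of genes with a promoter peak (41 and 49, beside 41) stayed within 1.5 times under each alternative tried. The share of all peaks that were promoter peaks moved with the definition too. It was 9.59% where 32 member peaks were promoter peaks and 18.5% where 63 were, beside 15.6% for the 46. It was 13.8% where 43 were and 14.0% where 41 were. For the ISRE, the central 200 bp gave 18 promoter peaks (1.83% of all promoter peaks matched). Half-sites 1, 2 or 3 bases apart gave 28 (10.1% of all promoter peaks), beside 21 in the main search (4.57%). Allowing 1 mismatch gave 41 promoter peaks (36.5% of all promoter peaks matched) and 94 distal peaks (63.4% of all distal). Distal peaks with an ISRE numbered 11 in the central 200 bp (3.42% of all distal) and 35 with 1, 2 or 3 bases apart (18.9%), beside 20. These counts move because a looser or shorter search matches more or less sequence. Depth per peak and cell type are unknown, and the nearest gene need not be the target.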
